A study of Mus musculus with 6 samples.

Results

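The promoters of noncoding and other non-protein-coding genes were examined in ATAC-seq libraries of mouse lung endothelial cells. ATAC-seq uses the Tn5 transposase to insert adapters into open DNA, so a higher value at a region stands for more accessible chromatin. There were 3 libraries from CSE-KO, Cre-positive mice and 3 from WT, Cre-negative mice. CSE is cystathionine gamma-lyase, the enzyme encoded by Cth that releases cysteine from cystathionine and also produces hydrogen sulfide. Every CSE-KO library carries Cre and every WT library lacks it, so Cre itself and loss of the enzyme cannot be told apart. The sources used here do not name the promoter that drives Cre, the deleted part of Cth, or the age, sex and strain of the mice. They also do not say that the libraries came from separate animals, and p-values then reflect sample spread that may be technical.

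A region was taken as a noncoding promoter when the deposited table assigned it to a gene, gave that gene a biotype other than protein coding, and placed the region's centre within 1 kb of the gene's start site. This chose 1823 regions of 1750 genes, out of 13250 promoter regions and 58172 regions in all. No measured value entered the choice. The 1823 regions fell into 21 biotypes, of which long noncoding RNA (lncRNA) was the largest with 1055 regions. A gene symbol stood in the deposited table for 7 of the regions, 6 polymorphic pseudogenes and 1 immunoglobulin V gene, and for the other 1816 the table gave only an Ensembl identifier. Names for 783 regions of 749 genes were therefore taken from RefSeq by position on the same build (GRCm38.p6, which is mm10). At the edge of the choice, the Gm34853 region lay 1000 bp from its start site, with values of 42, 31 and 26 in CSE-KO and 25, 11 and 8 in WT. The first region outside, of the lncRNA gene ENSMUSG00000098072, lay at 1001 bp with 42, 32 and 41 in CSE-KO and 44, 46 and 51 in WT.

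Noncoding genes are transcribed by several machineries. LncRNA genes, most microRNA hosts and the genes of the spliceosomal U1, U2 and U5 RNAs and of U3 RNA use RNA polymerase II, ribosomal RNA repeats use RNA polymerase I, and the small U6 and 5S RNA genes use RNA polymerase III. Pseudogenes are copies of genes that have lost their coding function, and processed ones, which arose from reverse-transcribed RNA, usually lack the parent gene's promoter. In endothelium, noncoding RNAs are known mainly for microRNAs that tune vessel growth and for lncRNAs such as Malat1 that affect endothelial proliferation.

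The sequences that go with the largest named changes are printed from RefSeq (GRCm38.p6), 5′ to 3′ on the gene's strand. The first set holds 3 promoters that were more accessible in CSE-KO and 2 that were less accessible. In each, the printed window lies largely inside the measured region. That also holds for E130018N17Rik (-1.88) and Gm40323 (-1.80), which had larger decreases than Gm34574 (-1.72) and are not printed. Capitals mark TGANTCA, the motif of the AP-1 family of transcription factors with any base at N. The 3 more accessible promoters hold it and the 2 less accessible ones do not. Among all promoters with a RefSeq sequence, 8 of the 20 called higher and 0 of the 29 called lower hold it.
Gm13415 promoter, chr2:24440143-24440442, strand +: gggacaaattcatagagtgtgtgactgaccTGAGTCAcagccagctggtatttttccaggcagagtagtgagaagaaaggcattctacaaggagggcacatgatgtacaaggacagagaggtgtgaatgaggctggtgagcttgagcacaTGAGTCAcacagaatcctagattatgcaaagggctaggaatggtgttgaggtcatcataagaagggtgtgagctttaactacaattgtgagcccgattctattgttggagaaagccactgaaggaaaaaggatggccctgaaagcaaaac
A530046M15Rik promoter, chr13:15806993-15807292, strand +: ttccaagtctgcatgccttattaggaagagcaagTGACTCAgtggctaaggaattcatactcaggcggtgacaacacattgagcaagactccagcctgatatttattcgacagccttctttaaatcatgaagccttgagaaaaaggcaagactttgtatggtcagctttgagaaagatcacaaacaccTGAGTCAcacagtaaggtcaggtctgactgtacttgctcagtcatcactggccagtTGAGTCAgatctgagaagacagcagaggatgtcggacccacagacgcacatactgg
Alkbh3os1 promoter, chr2:93979784-93980083, strand +: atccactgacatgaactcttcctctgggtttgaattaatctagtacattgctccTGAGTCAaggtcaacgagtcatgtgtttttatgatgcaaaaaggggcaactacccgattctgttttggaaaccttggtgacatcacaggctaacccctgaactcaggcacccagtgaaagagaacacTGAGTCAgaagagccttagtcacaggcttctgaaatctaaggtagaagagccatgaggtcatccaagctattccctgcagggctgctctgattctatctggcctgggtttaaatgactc
1700054K19Rik promoter, chr6:112210458-112210757, strand +: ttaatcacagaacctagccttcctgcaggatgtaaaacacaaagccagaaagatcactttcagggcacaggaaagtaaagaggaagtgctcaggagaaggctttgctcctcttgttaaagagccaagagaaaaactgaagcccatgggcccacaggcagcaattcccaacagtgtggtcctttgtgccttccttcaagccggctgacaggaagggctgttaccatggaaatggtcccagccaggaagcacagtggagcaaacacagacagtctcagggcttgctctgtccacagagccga
Gm34574 promoter, chr10:99228873-99229172, strand -: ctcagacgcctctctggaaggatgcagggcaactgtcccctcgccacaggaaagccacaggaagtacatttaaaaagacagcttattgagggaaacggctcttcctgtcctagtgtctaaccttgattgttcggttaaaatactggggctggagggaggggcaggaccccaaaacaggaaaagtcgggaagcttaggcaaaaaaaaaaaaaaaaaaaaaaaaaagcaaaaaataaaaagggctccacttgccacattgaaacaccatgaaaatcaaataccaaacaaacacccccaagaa

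The second set holds mature microRNAs of genes whose start-site regions were called different. Capitals mark the seed, bases 2 to 8, which pairs with target mRNAs. Mir344c shares its 5p seed with Mir344 and Mir344d-3 and its 3p seed with Mir344, and none of the other microRNAs shown shared a seed with another named microRNA gene in the set of promoters.
mmu-miR-29a-3p: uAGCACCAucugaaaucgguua
mmu-miR-129-5p: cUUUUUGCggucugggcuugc
mmu-miR-344c-3p: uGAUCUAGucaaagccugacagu
mmu-miR-344c-5p: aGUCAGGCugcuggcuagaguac
mmu-miR-6398: gUCAAUGAaccucagguaagg
mmu-miR-6414: cUAAGUUCugagcugagucuug

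Values below are those deposited per region and library, which appear to be read counts divided by a library factor and rounded. They summed to between 5437296 and 5547417 in the CSE-KO libraries and between 5242490 and 5368491 in the WT libraries. Reads per library are unknown, so no counting interval is given. In CSE-KO 35 to 39 of the whole numbers up to 100 never occurred and in WT none was missing, and the residual SD on the log2 scale was 0.481 in CSE-KO and 0.306 in WT. If the values are scaled counts, such gaps would arise where CSE-KO counts were multiplied by more than 1. The CSE-KO libraries would then have held fewer reads in these regions than the WT libraries. Such a difference in depth cannot be told apart from genotype and was not tested. The Cth promoter region, at chr3:157924836-157925422, had 11, 6 and 2 in CSE-KO and 195, 157 and 167 in WT (log2 change -4.78 ± 0.46 SE, adjusted p = 0.00307 by limma), in the direction of the labels. Of 18 endothelial marker genes 14 had a promoter region, and Pecam1, Robo4, Sox17 and Vwf had none. Their summed values were 1789 to 2005 in CSE-KO and 1560 to 1695 in WT. The markers did not all go one way: of their 15 regions 4 were called higher and 2 lower. The median value was 91.7 in CSE-KO and 96.3 in WT. Of 12 leukocyte markers 1 had a promoter region, Spi1, which was called lower (91 to 106 in CSE-KO and 155 to 194 in WT). Promoter regions were present for 4 of 12 mural and fibroblast markers (sums of 254 to 281 in CSE-KO and 198 to 204 in WT). They were also present for 4 of 12 epithelial markers (152 to 221 in CSE-KO and 172 to 208 in WT). In each of these last sets 1 region was called higher and 0 lower. The part of such cells in the results below was not tested. In bulk libraries, fewer cells with an open region and less opening per cell cannot be told apart.

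Across the 1821 noncoding promoter regions that passed the minimum mean value of 5, 130 were more accessible and 215 less accessible in CSE-KO (limma, adjusted p below 0.05 over all 58129 tested regions). Those calls made up 18.9% of the noncoding promoters, against a background of 17.3% of all tested regions. In the higher direction the share was 7.14% against 7.7% of all regions, and in the lower direction 11.8% against 9.6%. Of 11425 protein-coding promoters, 563 were called higher and 221 lower, together 6.86%. The median log2 change was -0.01 over noncoding promoters, 0.12 over protein-coding promoters and -0.06 over the 44883 tested regions outside promoters. A change of at least 2-fold was called for 65 noncoding promoters in the higher direction (background 4.32%) and 121 in the lower direction (background 5.93%). Values of the groups did not overlap, with CSE-KO higher, at 331 noncoding promoters (background 19%) and, with CSE-KO lower, at 406 (background 20.5%).

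**Figure D1:**
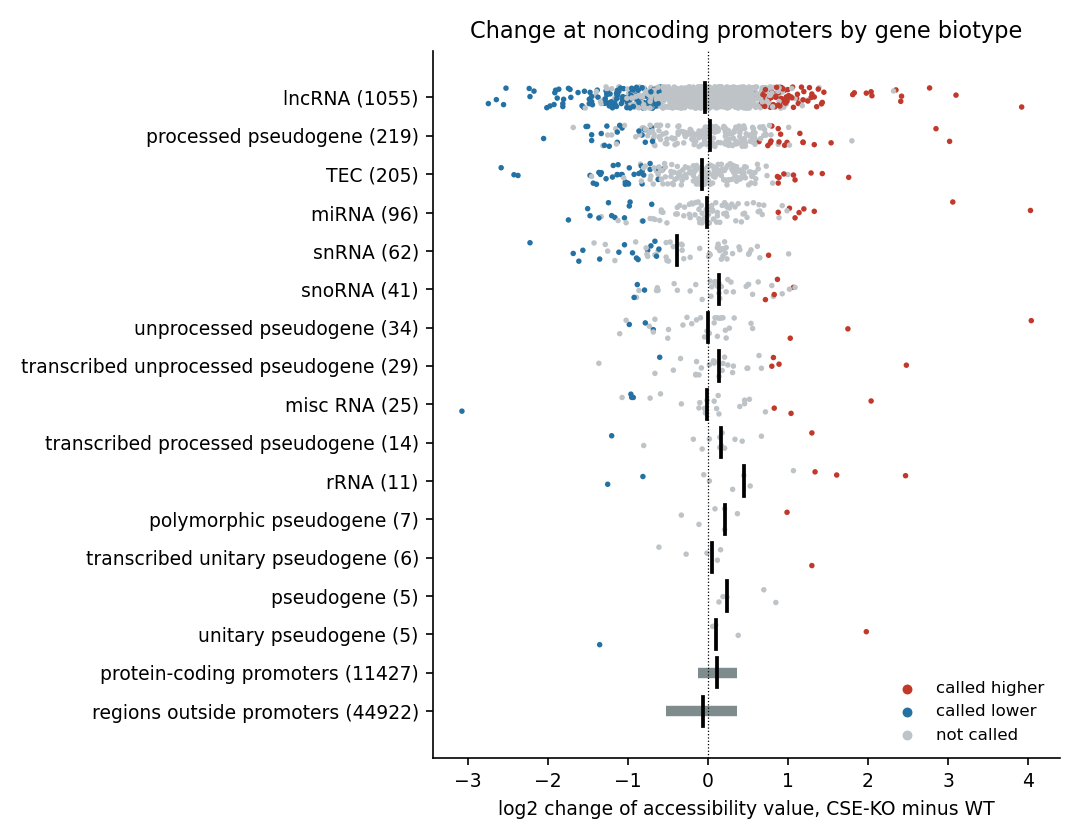
Log2 change of the accessibility value, CSE-KO minus WT, for each noncoding promoter region (points) by gene biotype with its number of regions, for biotypes of at least 5 regions; black bars are medians, and grey bars in the last 2 rows are interquartile ranges of the comparison classes. The snRNA median of -0.38 lies left of 0, while the lncRNA and processed pseudogene medians of -0.03 and 0.03 lie near it.

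With the 1 kb limit, noncoding promoters were a smaller part of all promoter accessibility in CSE-KO. They held 7.18, 6.82 and 6.9% of the summed promoter values in CSE-KO libraries, against 7.88, 7.94 and 7.7% in WT libraries. The groups did not overlap, and the means were 6.97 ± 0.188% in CSE-KO and 7.84 ± 0.127% in WT (SD, n = 3 each), a difference of -0.875 percentage points. The direction depended on the distance limit: the share of promoter values in noncoding promoter regions differed by 0.439 percentage points with a limit of 2500 bp. On the log2(value + 1) scale the mean over noncoding promoters minus that over protein-coding promoters was -1.25, -1.37 and -1.36 in CSE-KO and -1.14, -1.13 and -1.19 in WT, a difference of -0.17. Set against regions outside promoters, the noncoding mean was higher by 0.444, 0.431 and 0.436 in CSE-KO and by 0.415, 0.391 and 0.425 in WT, a difference of 0.0267. The protein-coding mean stood above regions outside promoters by 1.7, 1.8 and 1.79 in CSE-KO and by 1.56, 1.52 and 1.61 in WT, a difference of 0.2. The groups did not overlap in any of these 3 differences.

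**Figure D2:**
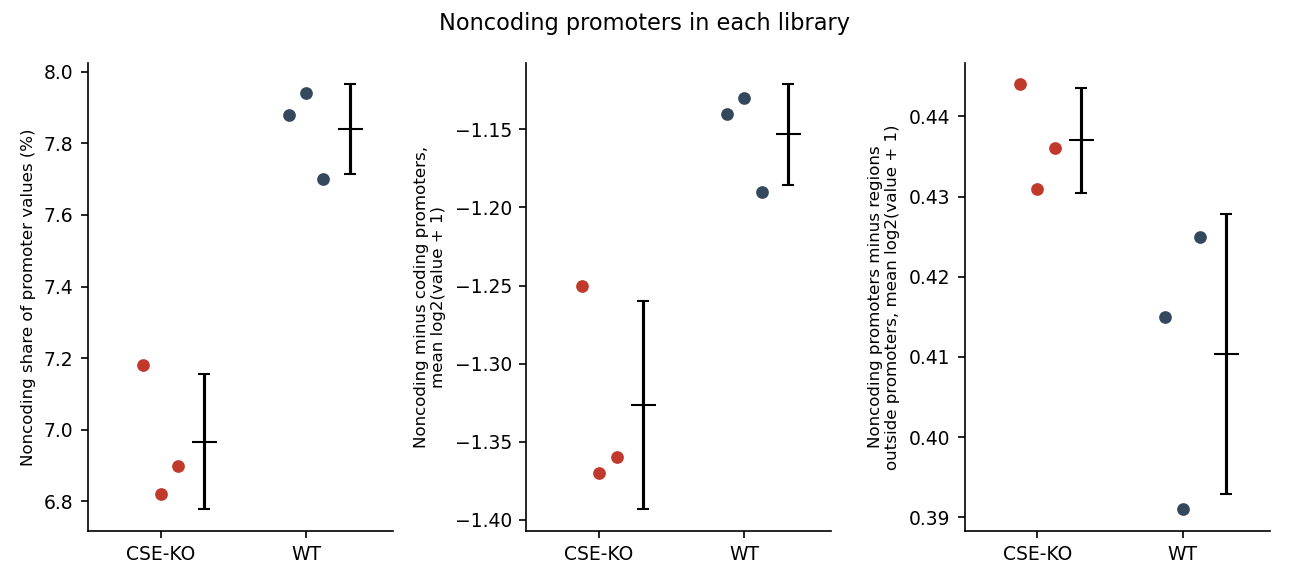
Each library's share of promoter values in noncoding promoters (left, percent), its mean log2(value + 1) over noncoding minus protein-coding promoters (middle) and over noncoding promoters minus regions outside promoters (right); points are libraries and bars are the mean ± SD of 3. In the left panel the CSE-KO libraries lie at 6.82 to 7.18% and the WT libraries at 7.7 to 7.94%, with no overlap, for regions within 1 kb of a start site; the axes do not start at 0.

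Noncoding promoters were weaker and narrower than protein-coding ones, with a median value of 55.7 and a median width of 469 bp, against 164 and 805 bp at protein-coding promoters and 41.3 and 388 bp outside promoters. Calls were therefore read at matched levels. Among regions with a mean value of at least 100, 25 noncoding promoters were called higher and 93 lower of 559 (4.47% and 16.6%), against 316 and 132 of 8043 protein-coding promoters (3.93% and 1.64%) and 499 and 1481 of 8484 regions outside promoters (5.88% and 17.5%). Between 30 and 100 the noncoding counts were 72 and 89 of 769, and under 30 they were 33 and 33 of 493. At each level the noncoding shares lay nearer to those of regions outside promoters than to those of protein-coding promoters in the lower direction. In the higher direction they lay nearer to protein-coding promoters at 100 and over and between 30 and 100 (9.36%, against 8.44% of protein-coding promoters and 11.6% outside promoters), and nearer to regions outside promoters under 30. No noncoding promoter's centre lay closer than 5153 bp to a protein-coding start of the deposited table (median 48330 bp). The set thus held no noncoding start beside those coding starts, and these shares may not hold for noncoding promoters in general.

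**Figure D3:**
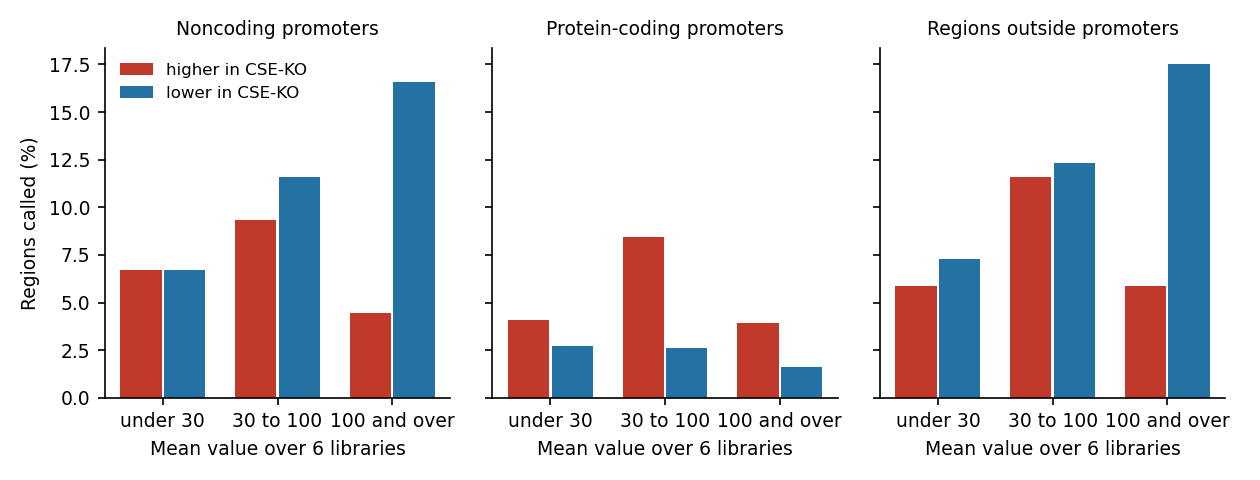
Percent of tested regions called higher (red, left bar) or lower (blue, right bar) in CSE-KO at 3 levels of the mean deposited value, for noncoding promoters, protein-coding promoters and regions outside promoters. At a mean of at least 100, 16.6% of noncoding promoters and 17.5% of regions outside promoters were called lower, against 1.64% of protein-coding promoters.

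Position relative to coding genes split the set. RefSeq places a protein-coding start within 1 kb of the region's centre for 94 noncoding promoters, which sit at shared or bidirectional promoters, and ATAC-seq carries no strand that could divide such a region between its genes. Of these 94, 4 were called higher and 1 lower (5.32%, against 17.3% of all regions), with a median log2 change of 0.17. Of the 1669 with no such start, 124 were called higher and 208 lower (19.9% of those tested), with a median of -0.02. These sets also differed in level, with median values of 141 near a coding start and 53 elsewhere. On chromosome 18, 60 regions were not analysed for this. The RefSeq starts used have further gaps: the nearest to Snhg6 lay 8201848 bp away, against 23878 bp in the deposited table. Regions in such gaps may be counted as having no such start. The 4 higher ones, named after their values were seen, were lncRNAs on the opposite strand to the coding gene. They included ENSMUSG00000085702 beside Mecom, which encodes a zinc-finger transcription factor needed in blood stem cells, with 85, 115 and 103 in CSE-KO and 48, 31 and 33 in WT (log2 change 1.43 ± 0.23, adjusted p = 0.00936 by limma). The others lay beside Baz2b, Dlgap4 and Lima1. Lying inside a coding gene went with about the same share of calls. Within one, 45 were called higher and 73 lower of 628 tested regions (18.8%), and outside 85 and 142 of 1193 (19%).

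Of 1053 tested lncRNA promoters 73 were called higher and 120 lower (6.93% and 11.4%, against 7.7% and 9.6% of all regions), with a median log2 change of -0.03. Without WT replicate 1, 2 or 3 the counts came to 24, 24 and 18 higher and 38, 40 and 37 lower. The less accessible ones among the largest changes included 1700054K19Rik, at chr6:112210238-112211096. Its values were 82, 78 and 102 in CSE-KO and 493, 501 and 517 in WT, or 87.3 ± 12.9 and 504 ± 12.2 (SD, n = 3 each), 5.75-fold lower in CSE-KO (log2 change -2.52 ± 0.17, adjusted p = 0.00133 by limma). Gm17745, at chr10:93335799-93336548, had 150, 130 and 89 in CSE-KO and 530, 573 and 534 in WT (-2.17 ± 0.22, adjusted p = 0.00343); the nearest RefSeq coding start, 25014 bp away, is that of Elk3, an ETS-family repressor active in endothelium. In both, the gap between the groups was wide. 4930417O22Rik, at chr11:101952614-101953443, had 87, 92 and 80 in CSE-KO and 349, 346 and 283 in WT (-1.90 ± 0.17, adjusted p = 0.00275). Gm34574, at chr10:99228303-99229780 and 34189 bp from the start of Dusp6, which encodes a phosphatase of ERK, had 121, 110 and 64 in CSE-KO and 336, 309 and 299 in WT (-1.72 ± 0.26, adjusted p = 0.00835). The weak Gm14642 region had 5, 18 and 8 in CSE-KO and 53, 64 and 58 in WT (-2.55 ± 0.40, adjusted p = 0.00898). None of these groups overlapped, which was a condition of the choice of the largest changes. These 5 calls held when any 1 library was left out. The calls of E130018N17Rik (-1.88), 1700020M21Rik (-1.86) and Gm40323 (-1.80) ended without WT replicate 1, 2 or 3, with adjusted p values up to 0.0705, 0.0755 and 0.0635. Gm15232 on the X chromosome (-1.62) lost its call without CSE-KO replicate 2 or 3 or WT replicate 2 or 3, with an adjusted p up to 0.126.

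The more accessible lncRNA promoters with a RefSeq name included Ppifos, at chr14:25700937-25701172, named for lying opposite Ppif, the gene of mitochondrial cyclophilin D. It had 23, 55 and 44 in CSE-KO and 3, 3 and 5 in WT (8.57-fold higher in CSE-KO on the value + 1 scale, adjusted p = 0.00406 by limma). Gm13415, at chr2:24440072-24440396, had 114, 103 and 156 in CSE-KO and 32, 31 and 24 in WT (2.05 ± 0.22, adjusted p = 0.00379). The groups did not overlap at either, which was a condition of the choice of the largest changes. A530046M15Rik, at chr13:15806749-15807271, had 83, 98 and 69 in CSE-KO and 36, 31 and 30 in WT (1.33 ± 0.19, adjusted p = 0.00737). Alkbh3os1, at chr2:93979786-93980147 and named for the opposite strand of the alkylation-repair gene Alkbh3, had 157, 104 and 144 in CSE-KO and 55, 56 and 49 in WT (1.30 ± 0.20, adjusted p = 0.00906). 2310043O21Rik followed at 1.25 ± 0.18 (adjusted p = 0.00719). These calls held when any 1 library was left out, while that of D330050G23Rik (1.29 ± 0.23) ended without WT replicate 1 or 3, with an adjusted p up to 0.0581.

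**Figure D4:**
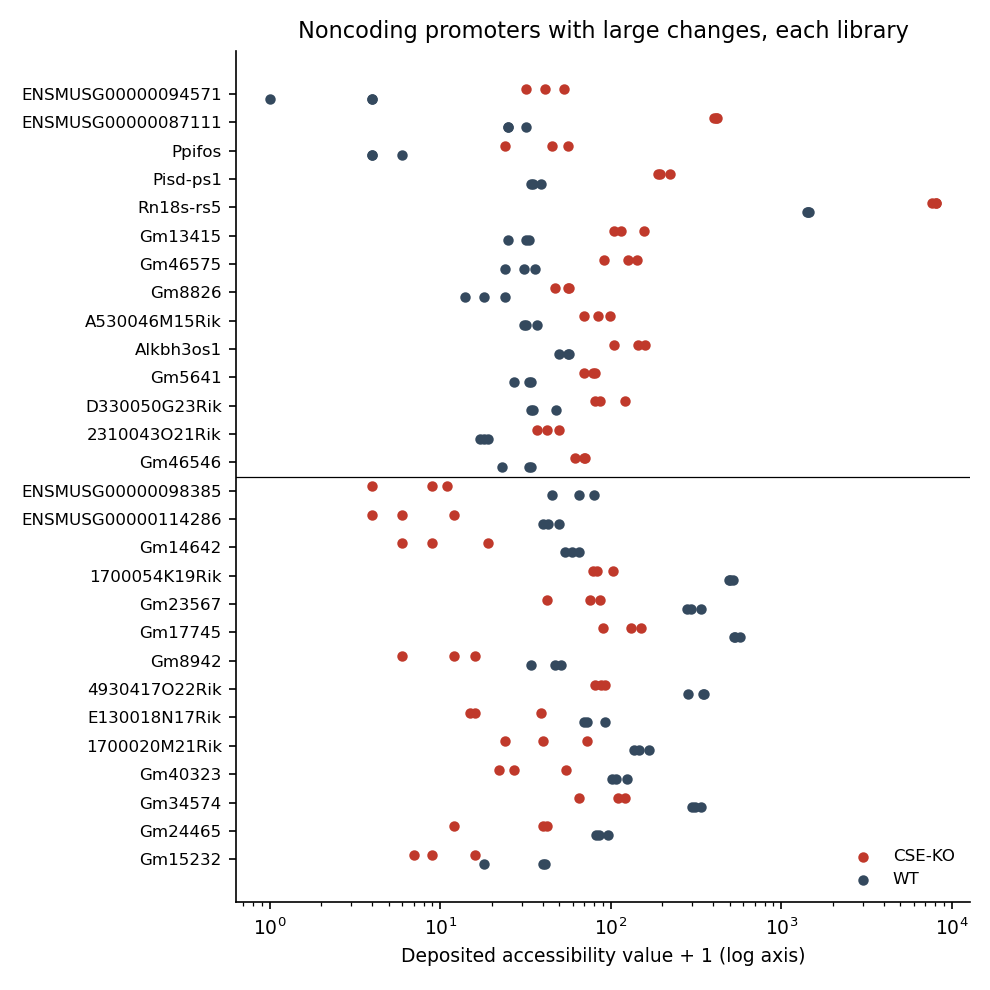
Deposited value plus 1 (log axis) in each CSE-KO library (red, upper row of points) and WT library (dark blue, lower row). Shown are 14 noncoding promoters called higher and 14 called lower. Each set holds the 12 largest called changes with a RefSeq name and 2 without one, at a mean of at least 20. Other regions without a RefSeq name are not shown, even where their change was larger than some shown, such as ENSMUSG00000076258 (log2 change 3.06). Non-overlap of the groups was a condition of the choice; the gap is narrowest at Gm15232 and wide at 1700054K19Rik (78 to 102 in CSE-KO, 493 to 517 in WT).

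The lncRNAs known by name were not called in either direction. Of 13 regions of 12 such genes none passed the test, 3 had an unadjusted p under 0.05 (Trp53cor1, Lncpint and Wincr1), 4 had non-overlapping groups with CSE-KO higher (background 19%), and the median log2 change was 0.13. Malat1, an abundant nuclear RNA, had 188, 211 and 244 in CSE-KO and 179, 204 and 168 in WT (0.22 ± 0.18, adjusted p = 0.426 by limma), with overlapping groups. Lncpint, an RNA induced by p53, had 206, 241 and 194 in CSE-KO and 125, 164 and 165 in WT (0.50 ± 0.19, adjusted p = 0.111), and its groups did not overlap. Trp53cor1, also induced by p53, had 127, 86 and 72 in CSE-KO and 59, 51 and 54 in WT (0.75 ± 0.24, adjusted p = 0.0691). Lockd, transcribed near the cell-cycle inhibitor gene Cdkn1b, had 268, 253 and 277 in CSE-KO and 208, 233 and 196 in WT (0.33 ± 0.16, adjusted p = 0.194). Among the imprinting and chromosome-organising RNAs, Kcnq1ot1 differed by -0.15, Firre by 0.13, and the 2 Airn regions by -0.32 and 0.06. Trp53cor1, Wincr1, Kcnq1ot1, Firre and Airn were named after their values were seen.

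A list of snoRNA host genes, which carry small nucleolar RNAs in their introns, and related names was likewise not called. It also held Dleu2, a microRNA host, and Snhg7os, which lies opposite a host; 0 of its 9 regions passed by limma, 1 (Snhg15) had an unadjusted p under 0.05, and the median log2 change was 0.14. Snhg8 had 431, 464 and 474 in CSE-KO and 469, 461 and 462 in WT (-0.03 ± 0.15, adjusted p = 0.925 by limma), and Dancr, a host with roles in differentiation, had 235, 242 and 202 in CSE-KO and 223, 208 and 259 in WT (-0.02 ± 0.17, adjusted p = 0.946). These are among the stronger noncoding promoters, and their values overlapped between the groups. Snhg15 had 193, 198 and 171 in CSE-KO and 132, 124 and 153 in WT (0.46 ± 0.17, adjusted p = 0.103), with every CSE-KO value above every WT value. Snhg15 was named after its values were seen. Dleu2, the host of Mir15a and Mir16-1, had 170, 260 and 187 in CSE-KO and 181, 174 and 194 in WT (0.14 ± 0.20, adjusted p = 0.657).

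Of 20 regions whose names place them on the opposite strand of a neighbour, 2 were called higher (Ppifos and Alkbh3os1, above) and 2 lower (20%, against 17.3% of all regions), with a median log2 change of 0.18. Plxna4os1, opposite the semaphorin co-receptor gene Plxna4 and at chr6:32510904-32511443, had 132, 100 and 103 in CSE-KO and 326, 299 and 292 in WT (-1.45 ± 0.18, adjusted p = 0.00488 by limma). Rab10os had 162, 142 and 172 in CSE-KO and 248, 253 and 224 in WT (-0.61 ± 0.16, adjusted p = 0.0447), and its call ended without any of the 6 libraries, with adjusted p values of 0.0556 to 0.143. Zeb2os, whose region lies 395 bp from the start of Zeb2, a repressor of epithelial genes, had 196, 198 and 303 in CSE-KO and 136, 144 and 144 in WT (0.68 ± 0.21, adjusted p = 0.0679). Where such a region lies near the start of the gene opposite, as at Zeb2os, ATAC-seq carries no strand that could divide it between the 2 genes. Of the called regions, that of Ppifos lay nearest to a RefSeq coding start, at 6884 bp.

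The snRNA promoters, those of the small nuclear RNAs of the spliceosome and their copies, were the biotype with the lowest median among those with at least 5 regions. Of 62 regions 15 were called lower (24.2%, background 9.6%) and 1 higher, and the median log2 change was -0.38. Their share of all promoter values was 0.229, 0.221 and 0.222% in CSE-KO and 0.365, 0.355 and 0.329% in WT, with no overlap. Leaving out 1 library gave 5 to 13 lower calls, with 13, 8 and 12 without CSE-KO replicate 1, 2 and 3 and 5, 6 and 6 without WT replicate 1, 2 and 3, and medians of -0.42 to -0.31. Copies of these genes are near-identical, the authors' handling of reads that match several copies is not given, and values of single copies are therefore uncertain.

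Calls were most frequent among strong regions. Of the 21 snRNA regions with a mean value of at least 100, 12 were called lower (57.1%) and none higher. At that level 16.6% of all noncoding promoters and 17.5% of regions outside promoters were called lower. Of the 23 snRNA regions between 30 and 100, 3 were called lower and 1 higher, and none of the 18 weaker ones was called. The median log2 changes were -0.66, -0.47 and 0.13 at these 3 levels, so the regions between 30 and 100 also had a negative median, with 15 of 23 below 0. Genes of the 191 bp span of Rnu2-10, which encodes U2 RNA, the part of the spliceosome that pairs with the branch point, had 7 of 11 regions called lower, all 11 with negative changes and a median of -0.89. The 164 bp span of Rnu1a1, a gene of U1 RNA, which pairs with the 5′ splice site, had 2 of 4 regions called lower and a median of -1.31. The 116 bp span of Rnu5g, a gene of U5 RNA, had 2 of 6 called lower and a median of -0.52. The other 41 snRNA regions had 4 called lower and 1 higher, with a median of 0.12. Grouping by gene span was chosen after the values were seen. Leaving out WT replicate 1, 2 or 3 left 2, 3 and 3 lower calls at the Rnu2-10 span, and leaving out CSE-KO replicate 1, 2 or 3 left 5, 4 and 6, while its median stayed between -0.92 and -0.78. At the Rnu1a1 span 1 call was left without any library except CSE-KO replicate 3, without which both calls stayed and the median came to -0.73. At the Rnu5g span 1 call was left without CSE-KO replicate 3 and 0 without any other library, with medians of -0.57 to -0.38.

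Rnu2-10, at chr11:101658276-101659090, had 240, 176 and 194 in CSE-KO and 483, 415 and 413 in WT, a 2.16-fold lower level in CSE-KO (log2 change -1.11 ± 0.18, adjusted p = 0.0107 by limma). The groups were separated by more than the range within either, and the call ended only without WT replicate 1 (adjusted p = 0.05). Gm24950, also of the U2 span and at chr11:101641458-101642575, had 149, 159 and 141 in CSE-KO and 285, 299 and 277 in WT (-0.94 ± 0.15, adjusted p = 0.0102). Gm22973, at chr12:59039922-59041110, had 93, 75 and 121 in CSE-KO and 342, 293 and 245 in WT (-1.61 ± 0.23, adjusted p = 0.00742). The calls of Gm24950 and Gm22973 held when any 1 library was left out. Rnu1a1, at chr11:87422553-87423536, had 185, 219 and 244 in CSE-KO and 339, 369 and 312 in WT (-0.66 ± 0.18, adjusted p = 0.045), and kept its call only without CSE-KO replicate 3, with adjusted p values of 0.0468 to 0.147. Its neighbour Gm22068 had 77, 103 and 85 in CSE-KO and 261, 226 and 193 in WT (-1.35 ± 0.20, adjusted p = 0.00757), a call that held throughout. At Rnu5g the region nearest the start site had 211, 172 and 203 in CSE-KO and 338, 294 and 282 in WT (-0.64 ± 0.17, adjusted p = 0.0439), and its call ended without any of the 6 libraries, with adjusted p values of 0.0551 to 0.146. A second, weak Rnu5g region, 992 bp from the start, went the other way without a call (57, 83 and 51 in CSE-KO, 41, 42 and 38 in WT). Gm23567, of the 107 bp span common among the other snRNA genes, had the largest change of the biotype, with 85, 75 and 41 in CSE-KO and 338, 294 and 279 in WT (-2.22 ± 0.29, adjusted p = 0.00565).

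**Figure D5:**
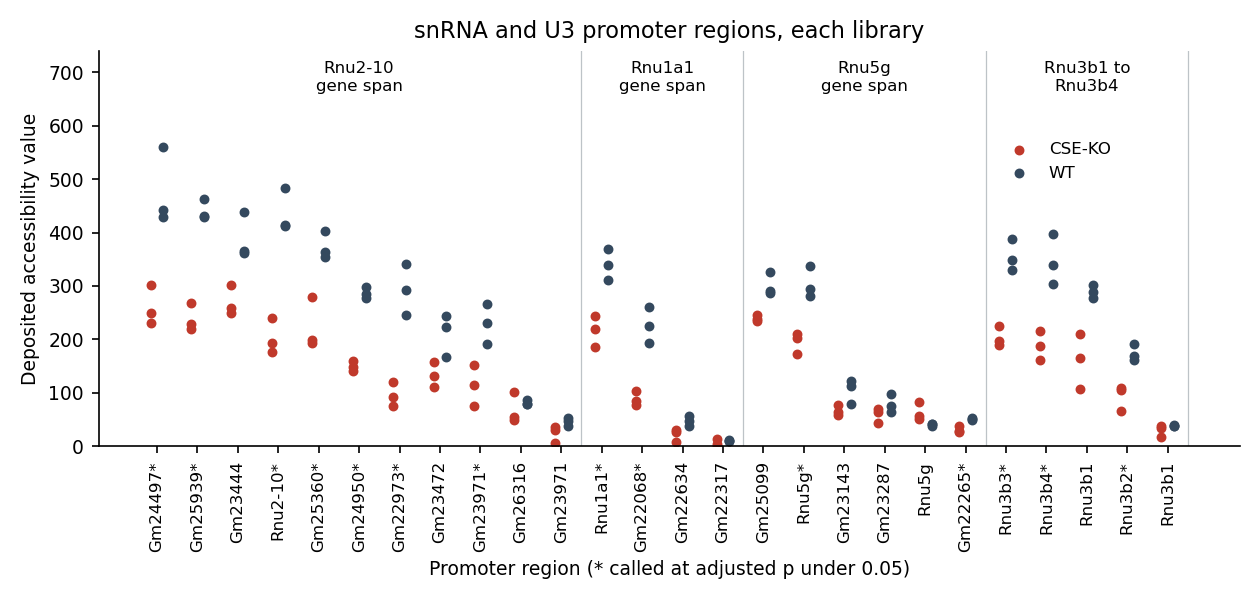
Deposited value in each CSE-KO library (red, left points) and WT library (dark blue, right points) at the snRNA regions with the gene spans of Rnu2-10, Rnu1a1 and Rnu5g and at the regions of Rnu3b1 to Rnu3b4; asterisks mark regions called at an adjusted p below 0.05. At Rnu2-10 the CSE-KO libraries lie at 176 to 240 and the WT libraries at 413 to 483.

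Many of these regions sit in 3 clusters of copies. The cluster at chr11:87422553-87471811 holds Rnu1a1, Gm22068 and the genes of U3 RNA, Rnu3b1 to Rnu3b4, in 7 regions, of which 5 were called lower. U3 RNA, classed as a snoRNA, guides the first cleavages of ribosomal RNA precursors. The summed values of the cluster were 918, 1047 and 983 in CSE-KO and 1904, 1760 and 1649 in WT. A cluster at chr11:101604568-101659090, with Rnu2-10, Gm24950, Gm23971 and Gm26316 in 5 regions, of which 3 were called lower, had sums of 520, 542 and 620 in CSE-KO and 1175, 1070 and 999 in WT. On chromosome 1, the cluster at chr1:72225791-72255913, with Gm25360, Gm23472, Gm24497 and Gm25939 in 4 regions, of which 3 were called lower, had sums of 922, 789 and 860 in CSE-KO and 1637, 1445 and 1425 in WT. The 3 calls of the chromosome 1 cluster all ended without WT replicate 1, 2 or 3, with adjusted p values of 0.0561 to 0.134 by limma. That of Gm25360 also ended without CSE-KO replicate 1 or 2, and that of Gm24497 without CSE-KO replicate 2 or 3. The call of Gm23971 held only without CSE-KO replicate 3 (adjusted p up to 0.146). All 16 regions of the 3 clusters had negative log2 changes, and no cluster's sums overlapped between the groups. Because reads may be shared between copies, the regions of a cluster are not independent, and the clusters were chosen after the values were seen.

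Of the 36 snoRNA regions other than U3, 4 were called higher (11.1%, background 7.7%) and 0 lower, 8 had negative changes, and the median log2 change was 0.20, while 3 of the 5 regions of Rnu3b1 to Rnu3b4 were called lower, with a median of -0.88. Rnu3b3 had 189, 198 and 226 in CSE-KO and 387, 348 and 330 in WT (-0.79 ± 0.17, adjusted p = 0.0207 by limma). The 3 U3 calls ended without WT replicate 1, 2 or 3, and that of Rnu3b2 also without CSE-KO replicate 3, with adjusted p values up to 0.125. Snord49b, a guide for RNA methylation, had 319, 345 and 423 in CSE-KO and 238, 266 and 259 in WT (0.50 ± 0.18, adjusted p = 0.0926). Without WT replicate 1 none of the 36 was called, and without CSE-KO replicate 1 the counts were 3 higher and 1 lower. The 4 higher regions were Gm26082 (0.83), Gm24608 (1.07), Gm26080 (0.72) and Gm25726 (0.87), and each lost its call without at least 2 of the 6 libraries, with adjusted p values up to 0.108. Both scaRNA regions, of RNAs that guide modification of snRNAs in Cajal bodies, were higher in value, and 1 was called: ENSMUSG00000088185 had 212, 193 and 164 in CSE-KO and 119, 125 and 108 in WT (0.68 ± 0.17, adjusted p = 0.0375), a call that held only without CSE-KO replicate 3. The misc_RNA class, which gathers copies of 7SK, Y and similar RNAs, had 3 regions called higher and 4 lower of 25 (28%, background 17.3%). Without WT replicate 1, 2 or 3 its counts came to 1, 2 and 1 higher and 2, 2 and 2 lower. In this class, ENSMUSG00000098385, at chr4:152201557-152201898, had 10, 8 and 3 in CSE-KO and 44, 79 and 64 in WT (-3.07 ± 0.41, adjusted p = 0.0061). Over all 142 regions of small structural RNAs, 12 were called higher and 24 lower (25.4%, background 17.3%), with a median of 0.03.

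The rRNA biotype was small and mixed, with 3 regions called higher and 2 lower of 11 (45.5%, against 17.3% of all regions), and no lower call was left without WT replicate 1, 2 or 3. Its share of promoter values was 0.342, 0.341 and 0.341% in CSE-KO and 0.0846, 0.088 and 0.0845% in WT, and most of it lay in 1 region. That region, at chr17:39848248-39848786, was named Rn18s-rs5, a sequence related to 18S ribosomal RNA. It had 7640, 8123 and 8076 in CSE-KO and 1430, 1445 and 1420 in WT, a 5.55-fold higher level (log2 change 2.47 ± 0.15, adjusted p = 0.000949 by limma). Quantile normalization turned this to -0.17 (adjusted p = 0.572), and the cause was not tested. Ribosomal RNA genes exist in many copies outside the assembled chromosomes and their reads can collect at such a sequence, so this value is uncertain as a measure of the locus. Among the other 10 regions, all with short gene spans, ENSMUSG00000088062 had 75, 75 and 67 in CSE-KO and 27, 29 and 28 in WT (1.34 ± 0.15, adjusted p = 0.00435).

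MicroRNA gene starts had 8 regions called higher and 12 lower of 96, together 20.8% against 17.3% of all regions, and a median log2 change of -0.01. The balance of the calls turned when any 1 WT library was left out, and not without a CSE-KO library. Without WT replicate 1, 2 or 3 the higher calls came to 6, 7 and 4 and the lower calls to 2, 4 and 3. These were 8.33, 11.5 and 7.29% of the class, against 6.2, 6.34 and 6.06% of all regions. Without CSE-KO replicate 1, 2 or 3 there were 7, 8 and 8 higher and 12, 11 and 15 lower calls. A microRNA's annotated start is that of its hairpin, so a region near it is not always the promoter of the primary transcript. Mir29a, whose product targets collagen mRNAs, had 42, 51 and 52 in CSE-KO and 29, 29 and 20 in WT (0.88 ± 0.21, adjusted p = 0.0299 by limma). Mir129-1 had 65, 66 and 59 in CSE-KO and 23, 36 and 30 in WT (1.09 ± 0.20, adjusted p = 0.0148). Both were higher in every CSE-KO library than in any WT library. The call of Mir29a held only without CSE-KO replicate 1 (adjusted p up to 0.095 otherwise), and that of Mir129-1 ended without WT replicate 1 or 3 (up to 0.0577).

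Among the less accessible microRNA regions, Mir344c had 26, 38 and 39 in CSE-KO and 93, 76 and 76 in WT (-1.24 ± 0.21, adjusted p = 0.0116 by limma), a call that ended only without WT replicate 1 (0.0519). Mir344, which shares both seeds with it and lies in the same cluster on chromosome 7, had 87, 92 and 107 in CSE-KO and 88, 93 and 93 in WT (0.06). Mir6398 had 67, 107 and 51 in CSE-KO and 205, 203 and 203 in WT (-1.50 ± 0.27, adjusted p = 0.0139), and Mir6414 had 74, 40 and 54 in CSE-KO and 157, 129 and 137 in WT (-1.36 ± 0.25, adjusted p = 0.0137). Their groups did not overlap, but leaving out WT replicate 1 or 3 ended both calls, and leaving out WT replicate 2 ended that of Mir6398, with adjusted p values up to 0.0596. Mir6932 (-0.97) and Mir1258 (-0.81) were also called lower, and both calls ended without WT replicate 1, 2 or 3 (up to 0.0956). Of 63 regions named for microRNAs or their hosts, 2 were called higher and 5 lower (11.1%, against 17.3% of all regions), with a median of 0.01. Among strong microRNA regions with no call, Mir210, induced by hypoxia, had 288, 236 and 284 in CSE-KO and 326, 280 and 342 in WT, Mirlet7i had 273, 345 and 282 in CSE-KO and 216, 210 and 243 in WT, and Mir139 had 186, 225 and 194 in CSE-KO and 196, 217 and 189 in WT; Mirlet7i, Mir139 and Mir344 were named after their values were seen. Regions with no RefSeq name included the largest changes of the class. ENSMUSG00000094571, at chr6:3050550-3050758, had 31, 40 and 52 in CSE-KO and 3, 3 and 0 in WT (4.03 ± 0.54, adjusted p = 0.00639), where the fitted change depends on the pseudocount of 1. The stronger ENSMUSG00000076258, at chr16:11144037-11144297, had 297, 553 and 285 in CSE-KO and 42, 46 and 39 in WT (3.06 ± 0.28, adjusted p = 0.00277 by limma). ENSMUSG00000076258 was named after its values were seen.

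Pseudogene promoters were about evenly divided, with 28 called higher and 25 lower of 319 (16.6%, against 17.3% of all regions) and a median log2 change of 0.07. Without WT replicate 1, 2 or 3 the counts came to 14, 13 and 10 higher and 9, 11 and 7 lower. The largest class, the 219 processed pseudogenes, had 17 higher and 19 lower. Pisd-ps1, at chr11:3125371-3125659 and a copy of the gene for a mitochondrial phospholipid enzyme, had 194, 187 and 221 in CSE-KO and 33, 34 and 38 in WT (2.48 ± 0.16, adjusted p = 0.00128 by limma). The lncRNA gene ENSMUSG00000087111, on the same stretch at chr11:3142130-3142403, had 412, 418 and 400 in CSE-KO and 24, 31 and 24 in WT, 15.1-fold higher in CSE-KO (3.92 ± 0.17, adjusted p = 0.000804). At both, the spread within each group was small beside the gap between groups. Reads of pseudogenes can be shared with their parents and other copies, so these values are uncertain for the single locus. Gm46575, at chr17:57267635-57268079, had 90, 141 and 126 in CSE-KO and 23, 35 and 30 in WT (1.98 ± 0.24, adjusted p = 0.00488). The processed pseudogenes Gm8826 (1.54 ± 0.23) and Gm46546 (1.19 ± 0.20) and the transcribed one Gm5641 (1.30 ± 0.17) were also higher, and these calls held when any 1 library was left out. Gm8942 was lower, with 15, 5 and 11 in CSE-KO and 46, 33 and 50 in WT (-2.05 ± 0.37, adjusted p = 0.0136), a call that ended without WT replicate 1 or 3 (up to 0.0577). Of the 7 polymorphic pseudogenes 1 was called higher, H2-Bl, a class I histocompatibility gene (0.99, named after its value was seen). Mx2, an interferon-induced antiviral gene that is inactive in many laboratory strains, had 189, 237 and 198 in CSE-KO and 231, 238 and 203 in WT (-0.11 ± 0.17).

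TEC genes, putative transcripts that still await experimental proof, had 9 regions called higher and 34 lower of 205 (16.6% lower, background 9.6%) and a median log2 change of -0.07. Of the 64 with a mean value of at least 100, 17 were called lower (26.6%) and 1 higher. At that level 16.6% of all noncoding promoters and 17.5% of regions outside promoters were called lower. Without WT replicate 1, 2 or 3 the lower calls came to 11, 14 and 11. The 3 strongest TEC regions, such as ENSMUSG00000107868 with 536, 510 and 520 in CSE-KO and 911, 726 and 776 in WT (-0.62 ± 0.16, adjusted p = 0.043 by limma), all had negative changes; the call of this region ended without any of the 6 libraries, with adjusted p values of 0.0665 to 0.144. The 6 regions of immunoglobulin and T-cell receptor segments, which rearrange only in lymphocytes, had no call. The strongest of them, Trdd2, had 96, 98 and 34 in CSE-KO and 114, 119 and 115 in WT (-0.75 ± 0.40, adjusted p = 0.229).

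RefSeq held a promoter sequence, 250 bases before to 50 after the start, within 100 bp of the deposited start for 270 of the regions (261 genes). It held none for the snRNA genes discussed above. In all, 8 motifs were searched on both strands, and all are given here. TGANTCA stood in 8 of the 20 matched promoters called higher (40%) and 0 of the 29 called lower, against 13.6% of the 221 not called and 7.81% of all 32851 RefSeq promoters. Where the printed window overlapped the region, the counts were 7 of 15 called higher and 0 of 21 called lower, and 12.3% of the 162 not called. CGGAAG, the core that ETS factors bind, stood in 2 of the 20 called higher (10%) and 9 of the 29 called lower (31%), against 15.8% of those not called and 16.9% of all RefSeq promoters. Where the window overlapped the region, CGGAAG stood in 2 of 15 called higher (13.3%), 6 of 21 called lower (28.6%) and 20.4% of those not called. GGGCGG, the GC box, which can share letters with CGGAAG, stood in 25% of those called higher, 13.8% of those called lower, 36.2% of those not called and 35.7% of all. The TATA box TATAAA stood in 20% of those called higher, 10.3% of those called lower, 13.6% of those not called and 13.6% of all. The box CCAAT stood in 40% of those called higher, 44.8% of those called lower, 38.9% of those not called and 37.4% of all. The rest stood in none of the promoters called in either direction: TGACGTCA, the CREB site, was in 9 of those not called (1.79% of all), the palindromic NRF1 motif in 1 (0.971% of all) and ATGACTCAT, a longer form that contains TGANTCA, in 3 (0.31% of all). The median number of CG dinucleotides was 6 in promoters called higher, 5 in those called lower and 8 in those not called, against 13 in RefSeq protein-coding promoters. These counts describe letters in a window and show no binding.

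Leaving out 1 library moved the number of calls across the whole table and not among noncoding promoters alone. Without WT replicate 1, 2 or 3 the noncoding counts came to 51, 53 and 42 higher and 67, 77 and 66 lower, while the share called over all regions was 6.2, 6.34 and 6.06%. Without CSE-KO replicate 1, 2 or 3 they came to 101, 99 and 94 higher and 196, 184 and 174 lower, and the shares over all regions were 15.3, 14.5 and 14.8%. More regions were lower than higher in all 6 cases, and the median stayed between -0.02 and -0.00. Of 72 called regions named by the rule, 30 kept their call whichever library was left out. By chromosome, the lower calls were most numerous on chromosomes 10 (21 of 113 regions), 1 (20 of 157) and 6 (18 of 114). Chromosomes with fewer regions had 17 of 94 (chromosome 12), 12 of 69 (chromosome 16) and 13 of 77 (chromosome 8). Chromosomes 14 and 17 had 3 of 69 and 4 of 97. The share called lower was 11.8% over all noncoding promoters and 9.6% over all regions.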

How the data were processed

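ATAC-seq was measured in 3 CSE-KO and 3 WT libraries of mouse lung endothelial cells, grouped by their titles. The tools named per the submitters' processing notes are DESeq2 1.26.0, Picard 3.1.1, STAR 2.7.3a and Trimmomatic 0.39, with build mm10; what each did, how peaks were called and whether read ends were shifted for Tn5 is not given in the sources used here. Here the authors deposited 1 table of regions shared by all libraries, with a score per library: whole numbers with near-equal totals and, in CSE-KO, gaps, as read counts divided by a size factor and rounded would give. No test for raw counts was run. The number of per-sample value columns not used was 0. Distances to start sites, genes and biotypes are the authors' and coordinates are as deposited.

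All 58129 regions with a mean of at least 5 were fitted with limma 3.58.1 (R 4.3.3) on log2(value + 1), CSE-KO minus WT, p-values being adjusted over all of them by Benjamini-Hochberg, with a threshold of 0.05; fold changes on this scale understate weak regions. The fit was tested on simulated data before use. Summaries were made with Python 3.11.15, numpy 2.4.6 and pandas 2.3.3. RefSeq names were accepted where gene spans overlapped by at least 50% of their joint span, with a compatible class and no conflicting strand. Named regions were first the 12 largest called changes with a RefSeq name each way, plus 2 without such a name each way. For these the mean was at least 20 and the groups did not overlap. Up to 3 regions of each biotype by mean value were added. Lists of known lncRNAs, snoRNA hosts, microRNAs, small structural RNAs and opposite-strand names gave every called member and up to 4 others by mean. Not all are printed. Other regions are printed as members of a cluster or at the edge of the distance limit, or were named after their values were seen, as stated beside them. The members and lists were chosen with earlier results of these data known. No p is therefore given for the shares or mean differences over members; with 3 libraries against 3 an exact permutation test could not go below 0.1. Replicate numbers were not treated as pairs. Alternatives covered the pseudocount, the low-value filter, scaling, moderation, the replicate block, the distance limit, sex chromosomes, very high values and each left-out library.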

Additional observations from a re-analysis of the deposited data

How the results depend on the processing

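The noncoding calls, 130 higher and 215 lower, lay within 1.5 times of these counts under another pseudocount (0.5 or 5), no filter or a filter at a mean of 20, recomputed size factors, quantile normalization, and without sex chromosomes or values over 10000. With trend and robust moderation 204 were called higher and 312 lower. The fit with a replicate block gave 64 and 122; the numbers did not pair the libraries (correlations of deviations of -0.00593, -0.0105 and 0.0105 across regions, and only the libraries numbered 3 correlated best with each other), so the samples share only a number. A limit of 500 bp gave 81 and 139 calls, and 2500 bp gave 247 and 408, with a median of -0.04. The share of promoter values in noncoding promoter regions, lower by 0.875 percentage points in CSE-KO (-0.875), reversed to 0.439 at 2500 bp and to 0.0012 with gene symbols only. With symbols only, 7 regions remained, with 1 and 0 calls, a median of 0.21, and a mean log2 change, noncoding minus protein-coding promoter regions, reversed to 0.10. Quantile normalization moved the median to 0.02. Leaving out 1 library gave 42 to 101 higher and 66 to 196 lower calls. Added after the data were seen, leaving out regions near a RefSeq coding start (124 and 208 calls) or the rRNA regions (127 and 213) changed neither direction.

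Of 127 named regions under 15 alternatives, 1661 values kept direction and side of the threshold, 197 lost a call, 28 gained one and 16 reversed. Under quantile normalization Rn18s-rs5 came to -0.17 and Snhg8 to 0.00. With 1 library left out, log2 changes that crossed 0 ranged from -0.05 to 0.02 at Snhg8, -0.09 to 0.07 at Dancr, -0.04 to 0.27 at Dleu2, -0.20 to 0.33 at Mlnr-ps, -0.14 to 0.02 at Mir3092, -0.00 to 0.18 at Gm25408, -0.47 to 0.32 at Ighv8-7, -0.46 to 0.04 at Ighv8-10 and -0.19 to 0.34 at ENSMUSG00000088949. Except for Rn18s-rs5 none of these was called; the causes were not tested. Reads per library are unknown, so the limit that depth sets on weak regions cannot be given. With the gaps in the CSE-KO values, this limit may differ between the groups.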
